A study of Capra hircus with 6 samples.

Results

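This report describes 7 genes, MSMB, LXN, PKIB, SUSD5, SLC6A6, CRYBA4 and NPTX2, out of 17504 genes measured in whole goat ovaries (Capra hircus). They were chosen by their FPKM values, which in Jintang 1 and Jintang 2 exceeded those of all 3 Tibetan ovaries, while Jintang 3 was left free to vary. That pattern is therefore a description here and carries no test. The samples were ovaries of 3 Jintang black goats, labelled prolific, and 3 Tibetan goats, labelled non-prolific, all taken in the follicular phase. Each library is the RNA of 1 ovary sample from 1 goat with all its cell types, and the labels give no age, treatment or batch. In bulk tissue, fewer cells of a type and less RNA per cell cannot be told apart. Values are FPKM, which are fragments divided by transcript length and by the mapped fragments of a library, so levels may be set beside each other between genes. Sets of 3 values are in the order of goats 1, 2 and 3 of a breed. Differences between groups are on the log2(FPKM + 1) scale, on which the change of a low gene looks smaller than it is.

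An ovary in the follicular phase holds growing follicles, with granulosa and theca cells around the oocyte, and the regressing corpus luteum of the cycle before. The corpus luteum makes progesterone. STAR, which moves cholesterol into mitochondria, marks steroid-making cells in general, whereas PTGFR, the receptor for prostaglandin F2 alpha, is characteristic of luteal cells and starts their regression. TIMP1, an inhibitor of matrix metalloproteinases, is abundant in the corpus luteum of ruminants. The 7 genes have no single shared role. MSMB and NPTX2 encode secreted proteins, SLC6A6 and SUSD5 membrane proteins, LXN and PKIB intracellular inhibitors, and CRYBA4 a crystallin.

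The libraries were of similar relative depth, between 0.923 and 1.026 times that of Tibetan 1, as judged from the spacing of low FPKM values. Absolute depth is unknown. The tissue label was checked against ovarian genes. NR5A1, which drives steroid-cell identity, stood between 19.3 and 62.6 FPKM and the granulosa factor FOXL2 between 1.75 and 16.0 FPKM over the 6 ovaries. Oocyte markers were mixed. FIGLA was listed at 0 in all but Tibetan 2, whereas GDF9 stood between 0.44 and 3.42 FPKM and ZP3 between 0.13 and 10.5 FPKM. Of the 9 oocyte markers measured, 4 reached 1 FPKM in at least 3 libraries. A library held between 12617 and 13131 genes at 1 FPKM or more. All 7 genes passed the filter of at least 1 FPKM in at least 3 libraries, which kept 13067 genes. CRYBA4 passed only through the Jintang ovaries, so it had to differ between the breeds once it was kept. NPTX2 reached 1 FPKM in 1 Tibetan library, and the other 5 genes did so in every library. The summed FPKM of the 7 genes was 11.6, 17.7 and 26.6 in Tibetan 1, 2 and 3. It was 862, 779 and 36.7 in Jintang 1, 2 and 3, or 0.143% and 0.125% of all FPKM in Jintang 1 and 2. That Jintang 1 and 2 stood above the Tibetan ovaries in this sum follows from the choice of genes. Jintang 3, left free, lay nearer in this sum to the Tibetan ovaries than to Jintang 1 and 2. MSMB weighs most in the sum, at 586 and 394 FPKM in Jintang 1 and 2, and single genes differed in where Jintang 3 lay.

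**Figure D1:**
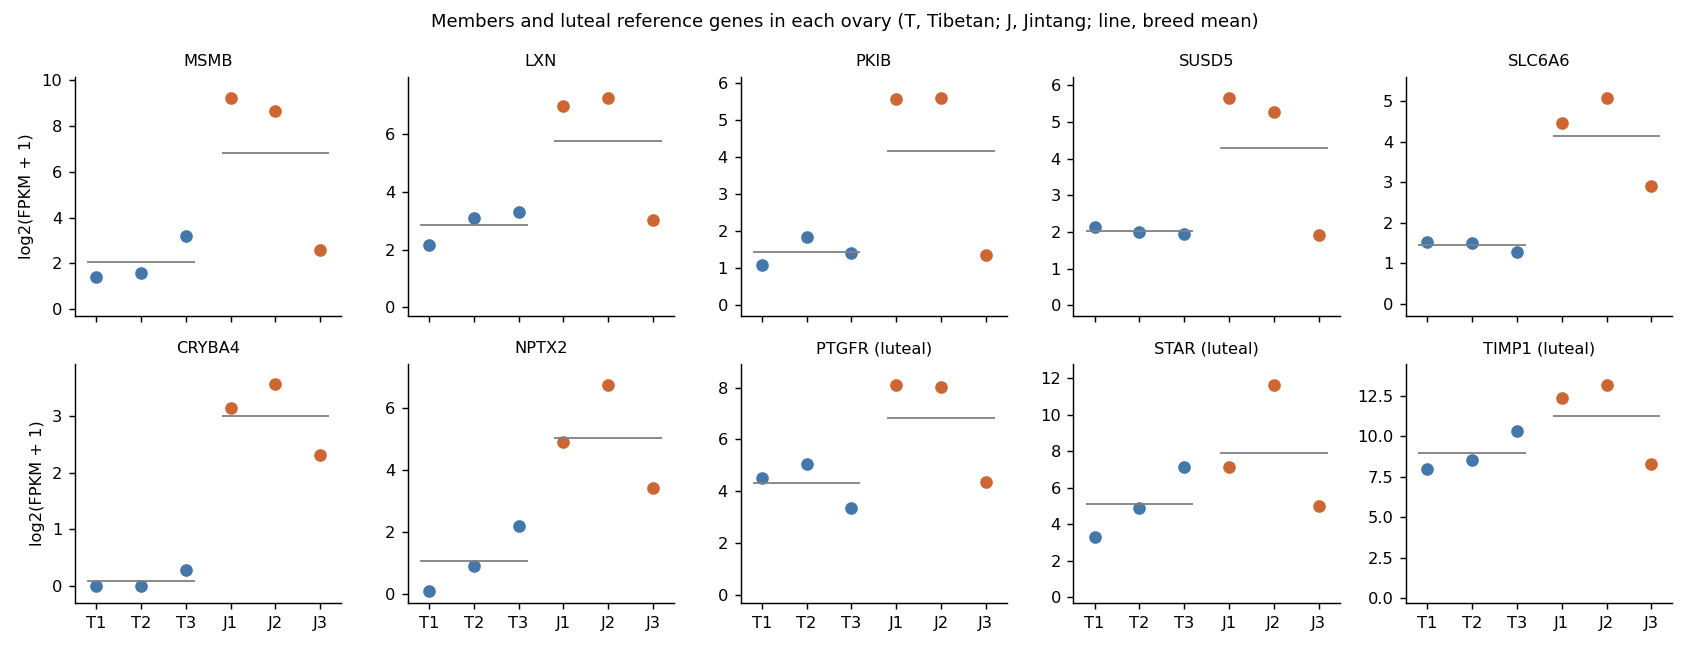
Level of each of the 7 genes and of the luteal genes PTGFR, STAR and TIMP1 in each ovary, on the log2(FPKM + 1) scale, with each point 1 goat and each line a breed mean. Jintang 1 and 2 sit above all other ovaries for the 7 genes, PTGFR and TIMP1, while STAR is equal in Jintang 1 and Tibetan 3 and far higher in Jintang 2.

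MSMB (GeneID 102184594) encodes microseminoprotein beta, a small cysteine-rich secreted protein best known from seminal plasma. Its values were 1.66, 1.95 and 8.05 FPKM for the Tibetan ovaries and 586, 394 and 5.02 FPKM for the Jintang ovaries. It was the highest of the 7 genes in both high ovaries, and Jintang 3 lay within the Tibetan range. The breed means were 3.89 ± 3.61 and 328 ± 296 FPKM (SD, n = 3 goats each). The Jintang SD was nearly as large as the mean because it spans these unlike ovaries. The lower of Jintang 1 and 2 was 48.9 times the highest Tibetan value, the third largest such ratio among the genes tested.

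NPTX2 (GeneID 102171212) encodes neuronal pentraxin 2, a secreted protein that clusters AMPA-type glutamate receptors at synapses. It stood at 0.07, 0.84 and 3.54 FPKM in the Tibetan ovaries and at 28.9, 107 and 9.73 FPKM in the Jintang ovaries. No Jintang ovary overlapped a Tibetan one, and the spread was wide in both breeds. The means were 1.48 ± 1.82 and 48.6 ± 51.7 FPKM (SD, n = 3). NPTX2 was the least balanced of the 7 between the high ovaries, at 3.71 times as much in Jintang 2 as in Jintang 1.

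SLC6A6 (GeneID 102170561) encodes the sodium- and chloride-dependent transporter that brings taurine into cells. Its values were 1.89, 1.84 and 1.44 FPKM in the Tibetan ovaries and 21.1, 32.8 and 6.46 FPKM in the Jintang ovaries. The Tibetan ovaries were close together, and Jintang 3 lay 3.42 times above the highest of them. SUSD5 (GeneID 102172105), a sushi-domain membrane protein with a link domain of the kind that binds hyaluronan, stood at 3.39, 3.02 and 2.88 FPKM against 49.5, 37.9 and 2.79 FPKM. Here Jintang 3 was the lowest of the 6 ovaries, just under a narrow Tibetan range. The breed means were 1.72 ± 0.247 and 20.1 ± 13.2 FPKM for SLC6A6. They were 3.10 ± 0.264 and 30.1 ± 24.3 FPKM for SUSD5 (SD, n = 3 for both genes).

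LXN (GeneID 100861135) encodes latexin, an inhibitor of metallocarboxypeptidases of the A type. It stood at 3.44, 7.44 and 8.85 FPKM in the Tibetan ovaries and at 122, 149 and 7.15 FPKM in the Jintang ovaries. Jintang 3 fell inside the Tibetan range. In the RefSeq gene order LXN overlaps GFM1, a mitochondrial translation factor, so fragments of these genes may have been shared, and the files do not say whether strand was used. GFM1 stood at 7.15, 8.24 and 13.9 FPKM against 11.5, 27.8 and 9.70 FPKM, so it was below LXN in Jintang 1 and 2 and above it in the other 4 ovaries. The part of GFM1 in the LXN values was not tested.

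PKIB (GeneID 100860939) encodes a small inhibitor that binds the catalytic subunit of protein kinase A, the kinase through which gonadotrophins act. Its values were 1.11, 2.60 and 1.63 FPKM in the Tibetan ovaries and 46.4, 47.5 and 1.56 FPKM in the Jintang ovaries. The high pair was almost equal, with 1.02 times as much in Jintang 2 as in Jintang 1, and Jintang 3 was again inside the Tibetan range. The deposited tables list 5 transcripts for PKIB and 2 for MSMB, and 1 for each of the other 5 genes. The breed means were 6.58 ± 2.81 and 92.7 ± 75.3 FPKM for LXN, and 1.78 ± 0.756 and 31.8 ± 26.2 FPKM for PKIB (SD, n = 3).

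CRYBA4 (GeneID 102183171) encodes a beta-crystallin, a structural protein of the eye lens. It is listed at 0 in Tibetan 1 and 2 and at 0.22 FPKM in Tibetan 3, and it stood at 7.89, 10.9 and 4.0 FPKM in the Jintang ovaries. It was the lowest of the 7 genes in Jintang 1 and 2. Its Jintang spread was the smallest relative to the mean, at 7.60 ± 3.46 FPKM (SD, n = 3).

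Jintang 3 was not used to choose the genes, and it split them. It lay above all Tibetan ovaries for SLC6A6, CRYBA4 and NPTX2, within their range for MSMB, LXN and PKIB, and below them for SUSD5. Of the 13067 genes tested, 1250 had Jintang 1 and 2 above all Tibetan ovaries (9.57%), and this share is the background for the pattern that chose the 7. In 418 of those 1250 (33.4%), Jintang 3 was above as well. The 3 of 7 seen here is near that share. Over all genes tested, Jintang 3 lay above every Tibetan ovary in 15.5%, all 3 Jintang ovaries did so in 3.2%, and all 3 lay below in 6.7%.

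The size of the pattern rests on the values that chose the genes and is given as a description. The lower of Jintang 1 and 2 was at least 2 times the highest Tibetan value in 205 genes, at least 5 times in 33 and at least 10 times in 14. All 7 genes are among the 33, and all but NPTX2, at 8.17 times, are among the 14. SUSD5 and SLC6A6 were nearest to the 10-fold mark from above, at 11.2 times each. Among genes that were not chosen, the largest ratios with a symbol were 40.3 for CRABP1, which binds retinoic acid in the cytoplasm, 12.9 for the metalloproteinase ADAMTS14 and 11.6 for the apolipoprotein APOA1. These genes are named after their values were seen.

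The breed comparison itself called nothing. With limma on log2(FPKM + 1), an adjusted p under 0.05 was reached by 0 of 13067 genes with higher (0%) and 0 with lower (0%) values in Jintang ovaries, and 806 had an unadjusted p under 0.05. The 7 genes therefore did not pass either. Their Jintang minus Tibetan differences were 4.75 for MSMB (SE 1.55), 3.98 for NPTX2 (SE 0.84), 2.92 for CRYBA4 (SE 0.39), 2.89 for LXN (SE 1.01), 2.73 for PKIB (SE 1.03), 2.71 for SLC6A6 (SE 0.52) and 2.25 for SUSD5 (SE 0.87). The median over all genes tested was -0.10. The values of the lowest genes depend on the pseudocount. CRYBA4, near 0 in the Tibetan ovaries, became 5.59 with 0.1 and 7.95 with 0.01, and NPTX2 became 5.23 and 5.64. Without Jintang 3, limma called 13 genes higher, and the differences became 4.14 for PKIB and 3.44 for SUSD5. That setting compares the same ovaries that chose the 7 genes, so their larger differences there are built in.

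The luteal genes in the same ovaries followed the 7 genes to different degrees. PTGFR values were 21.8, 32.3 and 9.23 FPKM for the Tibetan ovaries and 274, 259 and 19.4 FPKM for the Jintang ovaries. It had the same high pair, nearly equal at a Jintang 2 to Jintang 1 ratio of 0.946, with Jintang 3 inside the Tibetan range as for MSMB, LXN and PKIB. TIMP1 stood at 253, 371 and 1298 FPKM against 5304, 9215 and 307 FPKM. Jintang 1 and 2 were again highest, and Tibetan 3 came next, with Jintang 1 at 4.09 times its level.

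STAR stood at 8.91, 28.6 and 139 FPKM in the Tibetan ovaries and at 139, 3130.4 and 30.8 FPKM in the Jintang ovaries, so Tibetan 3 and Jintang 1 were level (ratio 0.997) and Jintang 2 was 22.5 times Jintang 1. Since Jintang 1 above Tibetan 3 was part of the choice, that these ovaries differ in the 7 genes is no finding, and the sizes are given as a description. Jintang 1 had 72.8 times the MSMB of Tibetan 3, 35.9 times its CRYBA4, 28.5 times its PKIB, 17.2 times its SUSD5, 14.7 times its SLC6A6, 13.8 times its LXN and 8.17 times its NPTX2. PTGFR differed between them by 29.7 times. Between Jintang 1 and 2 the 7 genes differed by at most 1.55 times, apart from NPTX2. A balance of this kind is common, since 82.6% of all genes tested differed by no more than 2-fold between Jintang 1 and 2 on the log2(FPKM + 1) scale.

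**Figure D2:**
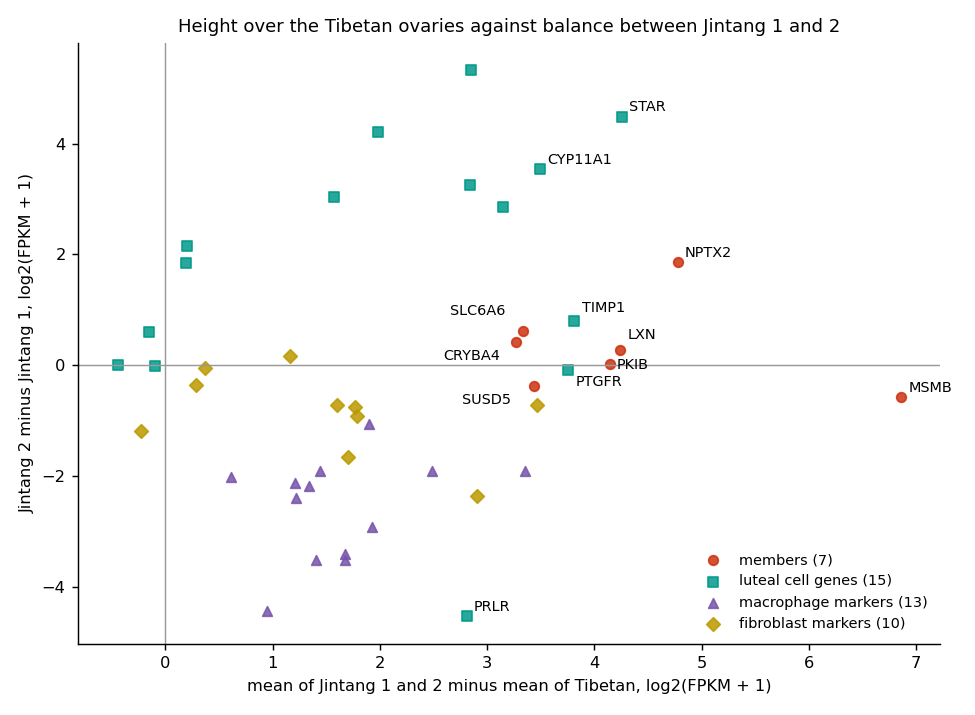
Each gene's mean in Jintang 1 and 2 minus its mean in the Tibetan ovaries (horizontal) against Jintang 2 minus Jintang 1 (vertical), both on the log2(FPKM + 1) scale, for the 7 genes, luteal genes, macrophage markers and fibroblast markers. The 7 genes, PTGFR and TIMP1 lie far to the right and, apart from NPTX2, within 1 of 0 on the vertical axis, while steroid-synthesis genes such as STAR and CYP11A1 lie above, and macrophage markers lie below.

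The balance between Jintang 1 and 2 was partly fixed by the choice, which leaves out genes high in 1 of them alone. It is therefore described for the lists without a test. The median Jintang 2 minus Jintang 1 difference was 0.28 for the 7 genes, of which 5 were higher in Jintang 2, and 0.06 over all genes tested, of which 53.5% were. For the 15 luteal genes it was 2.15, with 12 higher in Jintang 2. CYP11A1, which starts steroid synthesis from cholesterol, stood at 515 and 5995 FPKM in Jintang 1 and 2, and the gene listed as 3BHSD, taken for HSD3B1, at 105 and 4269.8 FPKM. PRLR, the prolactin receptor, went the other way at 53.4 and 1.35 FPKM. NR5A2, a nuclear receptor that switches on steroid-synthesis genes, stood at 15.9 and 122 FPKM. The luteal list as a whole had 13 of 15 members positive in the breed comparison (median 1.64), beside 41.0% of all genes tested. Of the list, limma called 0, with 2 at an unadjusted p under 0.05. Jintang 1 and 2 were above all Tibetan ovaries in 3 of its 15 genes, PTGFR, TIMP1 and NR5A2, beside 9.57% of all genes tested. PTGFR and TIMP1 were reference genes taken with earlier results of these data known. Outside the reference genes, only NR5A2 of this list had the pattern, so the count shows no excess for luteal genes. Without Jintang 2 the list's median was 0.33 and the differences of STAR and TIMP1 were 0.95 and 1.36, down from 2.80 and 2.31. Without Jintang 3 these became 2.81 for the list's median, 4.26 for STAR and 3.81 for TIMP1.

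Each of the 7 genes was also divided by a luteal gene of the same library. Per unit of PTGFR, MSMB stood at 0.0762, 0.0603 and 0.872 in the Tibetan ovaries and at 2.14, 1.52 and 0.258 in the Jintang ovaries. The ratio to PTGFR was higher in Jintang 1 and 2 than in all Tibetan ovaries for 2 of the 7, MSMB and CRYBA4. It overlapped for the other 5. PKIB per PTGFR ran from 0.051 to 0.177 in Tibetan ovaries and was 0.169 and 0.183 in Jintang 1 and 2. LXN per PTGFR was 0.446 and 0.574 in Jintang 1 and 2, below the 0.959 of Tibetan 3. The ratio to TIMP1 was higher in Jintang 1 and 2 for 3 of the 7, MSMB, CRYBA4 and NPTX2. The ratio to STAR was higher there for 2, CRYBA4 and NPTX2. For CRYBA4 and NPTX2, however, the ratio to each of these luteal genes was highest in Jintang 3. CRYBA4 per TIMP1 was 0.013 in Jintang 3 against 0.00149 and 0.00118 in Jintang 1 and 2. NPTX2 per TIMP1 was 0.0317 against 0.00545 and 0.0116. These ratios are descriptions over 6 libraries, and no share over all genes tested was computed for the counts. The choice of genes high in Jintang 1 and 2 favoured higher ratios there. For CRYBA4, listed at 0 in Tibetan 1 and 2, this was nearly built in.

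**Figure D3:**
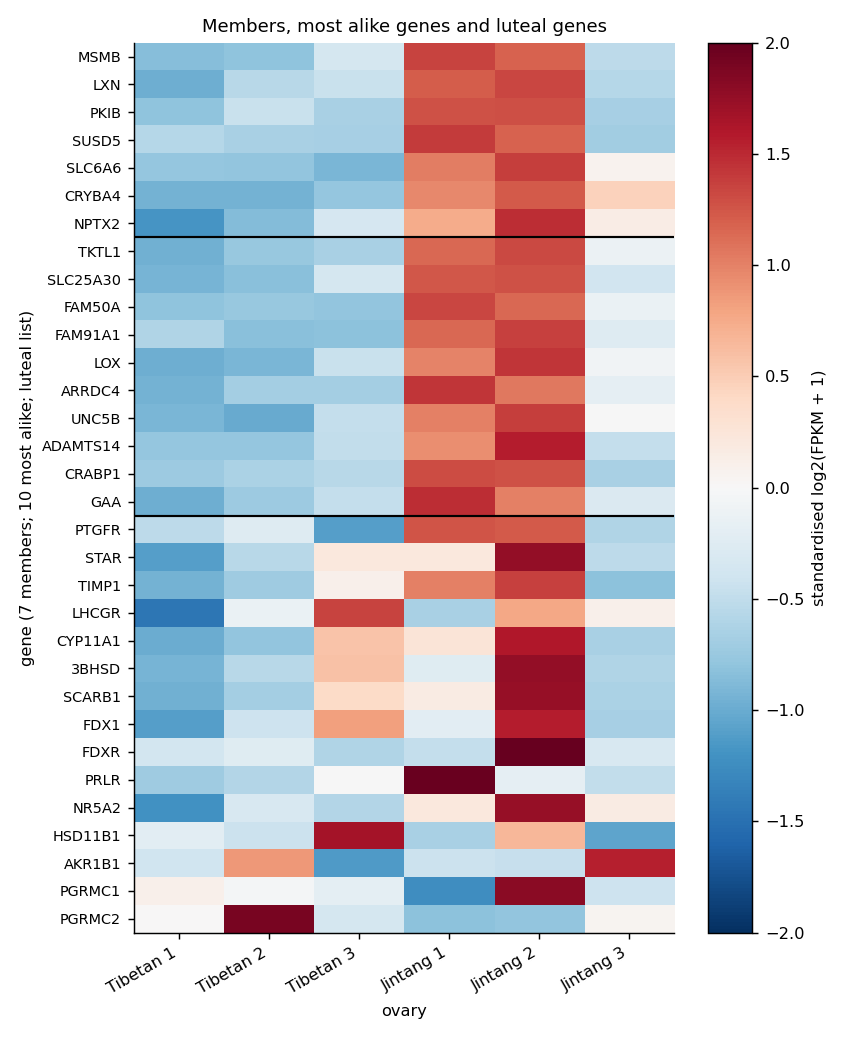
Standardised log2(FPKM + 1) in each ovary for the 7 genes (top block), the 10 genes most like their mean profile (middle) and the 15 measured luteal genes (bottom). The top and middle blocks, chosen for this pattern or for likeness to it, are high in Jintang 1 and 2 together. Many luteal genes, such as STAR and CYP11A1, peak in Jintang 2, whereas PTGFR and TIMP1 are high in both and PRLR peaks in Jintang 1. LHCGR and HSD11B1 peak in Tibetan 3, PGRMC2 in Tibetan 2 and AKR1B1 in Jintang 3.

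The genes most like the mean profile of the 7 were named by the Pearson correlation of log2(FPKM + 1) over the 6 libraries, given without a p because the profile was chosen and 241 genes (1.84%) reached 0.9. TKTL1, a transketolase-like protein, came first at 0.997. It stood at 0.18, 0.35 and 0.46 FPKM in the Tibetan ovaries and at 4.15, 4.81 and 1.13 FPKM in the Jintang ovaries. Like CRYBA4, it passed the filter only through the Jintang ovaries, so a breed difference was a condition of keeping it. SLC25A30, a mitochondrial carrier, followed at 0.990, and LOX, the lysyl oxidase that crosslinks collagen, at 0.986. LOX values were 3.47, 3.69 and 5.43 FPKM for the Tibetan ovaries and 16.1, 22.1 and 7.38 FPKM for the Jintang ovaries. The others of the first 10 were FAM50A, FAM91A1, ARRDC4, the netrin receptor UNC5B, ADAMTS14, CRABP1 and the lysosomal glucosidase GAA, between 0.978 and 0.988. A high likeness did not require a large change. FAM50A ran only from 18.1 FPKM in Tibetan 1 to 24.9 FPKM in Jintang 1. PTGFR ranked 165 among the genes tested at 0.924, TIMP1 199 at 0.913 and STAR 675 at 0.807. The 7 genes, whose own values made the mean profile, ranked from 7 for LXN (0.983) to 129 for CRYBA4 (0.935). PTGFR was thus not far below the last of them.

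Taken 1 gene at a time, CRABP1 was among the 3 closest genes for MSMB (0.989), LXN (0.990), PKIB (0.995) and SUSD5 (0.994). It stood at 1.21, 1.65 and 2.04 FPKM in the Tibetan ovaries and at 88.2, 82.3 and 1.57 FPKM in the Jintang ovaries, with Jintang 3 inside the Tibetan range. The closest genes for CRYBA4 were PEAK1 (0.997), the transcription factor RUNX2 (0.994) and TMEM2 (0.978). RUNX2 stood at 17.7, 21.3 and 13.8 FPKM in the Jintang ovaries against 6.33, 6.80 and 6.17 FPKM in the Tibetan ovaries. For SLC6A6 they were CLEC6A (0.997), the collagen chaperone FKBP10 (0.992) and FAM91A1 (0.985). Of these, CLEC6A passed the filter only through the Jintang ovaries. For NPTX2 they were ZNHIT3 (0.994), LOX (0.984) and RASAL1 (0.980). CRABP1 was thus close to the 4 genes whose Jintang 3 value was at the Tibetan level and not among the closest of the 3 with a raised Jintang 3. Since CRABP1 is itself at the Tibetan level in Jintang 3, this split restates the Jintang 3 values and is no separate grouping.

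Relatives of the 7 genes were read from family lists, and limma called 0 members of any of these lists, with 0 to 2 genes a list outside the 7 at an unadjusted p under 0.05. Latexin has 1 close homologue, RARRES1, a retinoid-responsive membrane protein. RARRES1 stood at 58.7, 36.2 and 47.6 FPKM in the Tibetan ovaries and at 432, 174 and 59.2 FPKM in the Jintang ovaries. No Jintang value overlapped a Tibetan one, although Jintang 3 lay close to Tibetan 1. Among the carboxypeptidases, CPD, a processing enzyme of the secretory pathway, stood between 20.7 and 35.9 FPKM in Tibetan and between 33.2 and 41.0 FPKM in Jintang ovaries, and CPE, which matures peptide hormones, between 13.3 and 47.8 against between 14.6 and 65.1 FPKM. CPZ, named after its values were seen, is another metallocarboxypeptidase and stood at 0.47, 2.02 and 0.50 FPKM against 18.0, 4.17 and 1.22 FPKM, so Jintang 1 and 2 were above all Tibetan ovaries. With RARRES1 it made 2 of the 5 genes tested in this list besides LXN with that pattern, where the background is 9.57%.

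Among crystallins, CRYBB1 had the pattern of CRYBA4 at a higher level, with 4.30, 6.20 and 18.7 FPKM in the Tibetan ovaries and 54.6, 45.0 and 14.0 FPKM in the Jintang ovaries. Here Jintang 3 was inside the Tibetan range. The quinone oxidoreductase CRYZ, an enzyme with a crystallin name, stood at 16.1, 27.2 and 15.0 against 59.3, 63.4 and 15.5 FPKM. CRYAB, a small heat-shock protein, was at 55.5, 17.6 and 68.0 against 66.3, 61.2 and 13.6 FPKM, and CRYL1 at 76.9, 34.7 and 30.9 against 40.5, 29.3 and 42.2 FPKM, so both overlapped. Besides CRYBA4, which was chosen for it, the high pair was seen in 2 of 5 crystallins tested, CRYBB1 and CRYZ, beside 9.57% of all genes tested.

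Besides PKIB, 0 of the 7 PKA genes tested had Jintang 1 and 2 above all Tibetan ovaries, beside 9.57% of all genes tested. PKIG, another inhibitor of the same kinase, stood between 69.6 and 104 FPKM in Tibetan and between 59.9 and 118 FPKM in Jintang ovaries. It was thus more abundant than PKIB in every ovary. PKIA, named after its values were seen, stood at 0.37, 2.76 and 26.9 FPKM in the Tibetan ovaries and at 8.83, 48.2 and 2.65 FPKM in the Jintang ovaries. Its highest values were those of Jintang 2 and Tibetan 3. The regulatory subunit PRKAR1A lay between 131 and 236 FPKM in the Tibetan goats and between 127 and 196 FPKM in the Jintang goats, and the catalytic subunit PRKACA between 32.3 and 52.6 against 31.1 and 46.9 FPKM, both overlapping.

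Of the other taurine genes, CDO1, which starts taurine synthesis from cysteine, stood at 76.9, 58.5 and 214 FPKM in the Tibetan ovaries and at 80.7, 149 and 60.5 FPKM in the Jintang ovaries, and CSAD, the next enzyme, at 23.3, 16.0 and 25.1 against 17.6, 12.0 and 14.3 FPKM. Both overlapped between the breeds. ADO, a dioxygenase that makes hypotaurine, ran from 8.05 to 9.92 against 9.45 to 14.2 FPKM. With 10.7 and 14.2 FPKM in Jintang 1 and 2, ADO had the high pair. It was the 1 gene of 3 tested in the taurine list besides SLC6A6 that did. SLC6A8, the creatine transporter and the most abundant measured gene of the SLC6 family, stood at 28.7, 21.2 and 37.3 against 47.6, 60.2 and 25.6 FPKM. It was the 1 gene with Jintang 1 and 2 above all Tibetan ovaries among the 5 tested in this family besides SLC6A6. The background is 9.57% of all genes tested.

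PTX3, a pentraxin of the expanding cumulus matrix, stood at 0.84, 3.26 and 2.09 FPKM in the Tibetan ovaries and at 4.56, 26.0 and 7.68 FPKM in the Jintang ovaries, so that, as for NPTX2, Jintang 2 was highest and no Jintang ovary overlapped a Tibetan one. The neuronal partners of NPTX2 were low. NPTX1 reached at most 3.29 FPKM, NPTXR at most 2.43 FPKM, and the AMPA receptor subunit GRIA3 at most 7.64 FPKM, in Jintang 1. Of the link-domain genes, VCAN, a large hyaluronan-binding proteoglycan, stood at 9.72, 34.7 and 33.9 against 121, 51.0 and 57.4 FPKM without overlap. CD44, the main hyaluronan receptor, stood at 4.13, 11.0 and 59.9 against 56.4, 29.6 and 17.3 FPKM, with Tibetan 3 highest. Besides SUSD5, 2 of 6 link-domain and hyaluronan-binding genes tested had the high pair, HAPLN3 and VCAN. Among pentraxins tested besides NPTX2 it was 1 of 3, PTX3, and among the listed NPTX2 partners 2 of 5, GRIA3 and ADAM17. The high pair, seen in 9.57% of all genes tested, was seen in 0 of 3 tested SUSD genes besides SUSD5. It was also seen in 0 of 3 tested microseminoprotein and CRISP genes besides MSMB. CRISPLD2, the most abundant of the latter besides MSMB, lay between 47.3 and 92.3 FPKM in the Tibetan goats and between 22.2 and 55.2 FPKM in the Jintang goats.

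**Figure D4:**
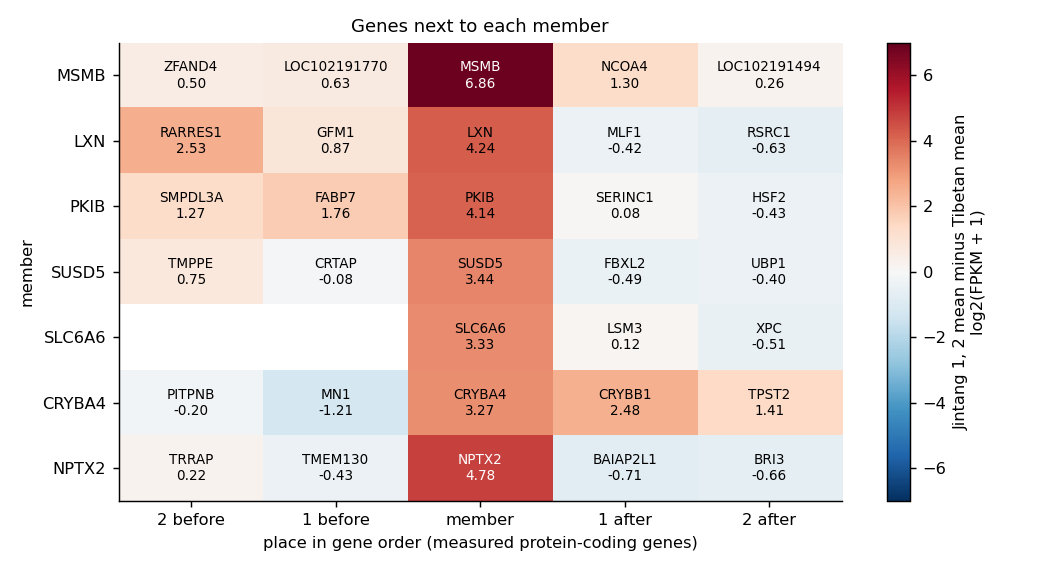
Mean of Jintang 1 and 2 minus mean of the Tibetan ovaries, on the log2(FPKM + 1) scale, for each of the 7 genes and up to 2 measured protein-coding genes on either side of it in RefSeq gene order. The largest values next to a member are RARRES1 beside LXN (2.53) and CRYBB1 beside CRYBA4 (2.48), and most other neighbours lie within 1 of 0.

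Neighbouring genes were read from the gene order of assembly ARS1.2. Of 26 measured neighbours, 24 were tested, and 5 of these (20.8%) had Jintang 1 and 2 above all Tibetan ovaries, where the background is 9.57%. They were ZFAND4 and NCOA4 beside MSMB, RARRES1 beside LXN, and CRYBB1 and TPST2 beside CRYBA4. In 2 of them, RARRES1 and CRYBB1, the lower of Jintang 1 and 2 was at least 2 times the highest Tibetan value, and both are also relatives of the gene they adjoin. NCOA4, a receptor for ferritin breakdown, stood at 25.3, 32.7 and 43.0 against 65.0, 104 and 36.6 FPKM. TPST2, a tyrosine sulphotransferase, stood at 18.0, 13.2 and 37.0 against 61.2, 52.5 and 20.0 FPKM. FABP7 and SMPDL3A beside PKIB were highest in Jintang 1, at 78.6 and 13.5 FPKM, and low in Jintang 2, at 2.81 and 0.58 FPKM, unlike PKIB itself. The neighbours of SUSD5, SLC6A6 and NPTX2 showed no high pair.

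**Figure D5:**
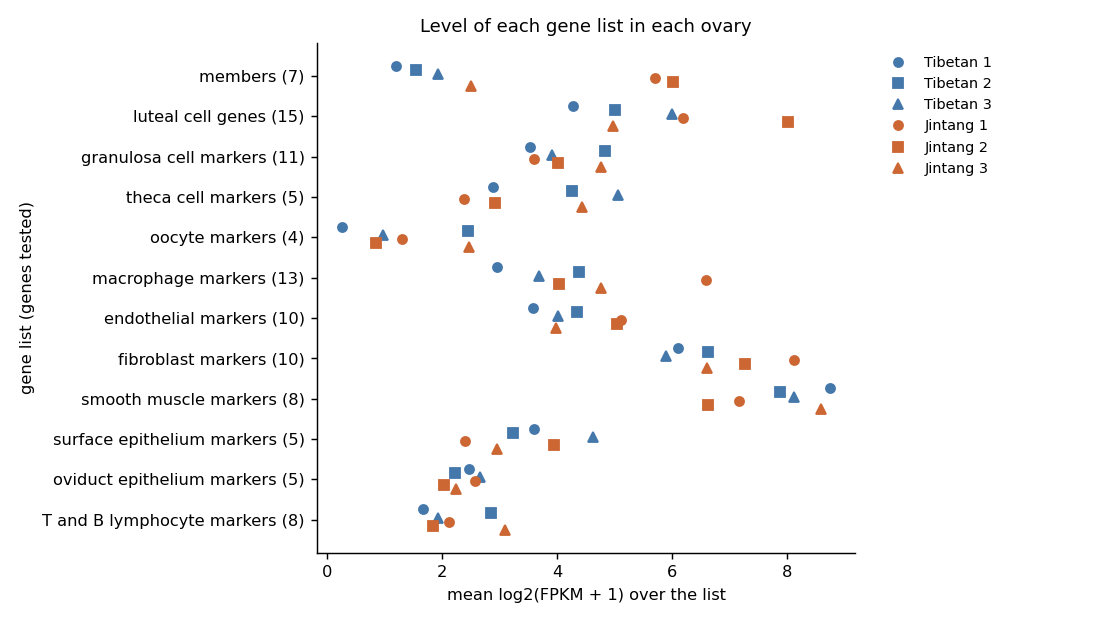
Mean log2(FPKM + 1) of each gene list in each ovary, with 1 point per goat. Jintang 1 and 2 (orange circle and square) sit far to the right for the 7 genes and at the left for smooth muscle markers, while macrophage markers are highest in Jintang 1 alone.

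Markers of other cell types moved with these ovaries in several directions. Endothelial markers had Jintang 1 and 2 above all Tibetan ovaries in 8 of 10 genes, where the background is 9.57% of all genes tested. Their summed level was 439 and 382 FPKM in Jintang 1 and 2, 202 FPKM in Jintang 3 and between 182 and 287 FPKM in Tibetan ovaries. Fibroblast markers had the pattern in 7 of 10 genes, with 9 higher in Jintang 1 than in Jintang 2. Macrophage markers had the pattern in 3 of 13 genes. They summed to 1927 FPKM in Jintang 1 and to 234 FPKM in Jintang 2, with 489 FPKM in Jintang 3 and between 129 and 381 FPKM in Tibetan ovaries. All 13 tested were higher in Jintang 1 than in Jintang 2, whereas 53.5% of all genes tested were higher in Jintang 2. Smooth muscle markers were lowest in the same pair, with mean log2 values of 7.17 and 6.62 in Jintang 1 and 2, 8.59 in Jintang 3 and between 7.87 and 8.75 in Tibetan ovaries. Theca markers had mean log2 values of 2.38 and 2.93 in Jintang 1 and 2, 4.43 in Jintang 3 and between 2.88 and 5.06 in Tibetan ovaries, so Jintang 2 lay within the Tibetan range. Jintang 1 and 2 were above all Tibetan ovaries in 0 of the 5 theca genes tested, beside 9.57% of all genes tested. CYP17A1, the androgen-producing enzyme, stood at 1.99 and 4.24 FPKM in Jintang 1 and 2 against between 16.3 and 719 FPKM in the other 4 ovaries, whereas NR5A1, at 22.9 and 27.6 FPKM, and the luteinising hormone receptor LHCGR, at 5.71 and 28.8 FPKM, lay within the Tibetan range. Oviduct epithelium markers, a list for another tissue that could be cut along with an ovary, summed to 37.2 and 18.4 FPKM in Jintang 1 and 2 and to between 25.7 and 39.3 FPKM elsewhere. The red-cell genes ALAS2 and AHSP were at most 0.67 FPKM summed. The part of these cell types in the levels of the 7 genes was not tested.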

How the data were processed

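Per the labels' protocols, RNA was extracted with TRIzol and an NEBNext kit was used for the libraries. The authors deposited 1 table of FPKM values per goat. Tools named in the submitters' processing notes, with no role, are RSEM 1.2.0, Bowtie2 2.1.0 and TopHat2 2.0.10. No coordinates are printed because the genome build is not stated in these sources, nor are annotation, strand and read length. A further table of the whole series was not used here. The column name of Tibetan 2 differs in form from those of the other 5 goats, for a reason the labels do not state.

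Of 17504 GeneIDs, 16457 took a symbol from RefSeq (assembly ARS1.2) by GeneID and 9 by transcript accession. CYP11A1 and CYP17A1 were found as synonyms, and 35 of 242 list entries had no measured gene. Neighbours are the nearest 2 measured protein-coding genes per side, with at most 1 unmeasured gene between.

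The 13067 genes that reached 1 FPKM in 3 or more libraries were fitted on log2(FPKM + 1) with limma 3.58.1 in R 4.3.3, using breed alone, an intensity trend, a 2-sided test and Benjamini-Hochberg adjustment at 0.05. Nothing was rescaled. The procedure was tested on simulated data. Figures used matplotlib 3.10.9. Replicates are separate goats, 3 per breed. The genes and lists were chosen with earlier results of these data known. Genes outside the 7 could be named if luteal, if among the 4 highest of a family list, or if among the most alike (10 for the mean profile, 3 per gene), and not all of these are printed. CPZ, PKIA, single cell-type markers, the neighbour rule, the cell-type sums and genes with large ratios were added after the values were seen.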

Additional observations from a re-analysis of the deposited data

How the results depend on the processing

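limma called 0 genes higher and 0 lower in Jintang ovaries without a filter, with a minimum of 5 FPKM in 3 libraries, with a pseudocount of 0.1 or 0.01, with quantile, TPM or median-ratio scaling, no trend and robust variances, with 571 to 998 genes at an unadjusted p under 0.05. With 1 library left out, the count of higher genes ran from 0 to 13 (13 without Jintang 3) and that of lower genes was 0. The median of the luteal list ran from 0.33 (without Jintang 2) to 2.81 (without Jintang 3), and from 1.64 to 1.76 under the other alternatives. The cause was not tested. The differences of the 7 genes, PTGFR, STAR and TIMP1 stayed positive under every alternative that kept the gene. For the 7 genes this was favoured by the choice and is no support. Every alternative kept Jintang 1 or Jintang 2, whose high values chose them. PKIB, SUSD5 and CRYBA4 did not reach the 5 FPKM filter. The replicate number as a block gave 0 calls in either direction and 581 genes at an unadjusted p under 0.05. Deviations of same-numbered goats correlated at -0.02, -0.21 and -0.47, and the labels do not pair the goats. Absolute depth is unknown, so no counting interval can be given for low values such as those of CRYBA4.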
